A study of Homo sapiens with 8 samples.

Results

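Genes of translation initiation and ribosome biogenesis were compared between fractions of MIA PaCa-2 cells that differed in permeability to lactic acid. Members were every gene in the deposited table whose symbol starts with EIF, NOP, UTP, POLR1, RPL or RPS, leaving out the RPS6K kinases, and there were 46 of them among 3666 genes. By symbol they were classed as 18 initiation factors (EIF) and 16 nucleolar factors (8 UTP, 5 NOP and 3 POLR1 genes). The others were 8 genes with ribosomal protein symbols and 4 ribosomal protein pseudogenes. Some genes with EIF symbols, such as EIF4A3 and EIF5A, have other known roles. MIA PaCa-2 is an established human pancreatic ductal adenocarcinoma line, labelled wild type and untreated. Cells were sorted by fluorescence into a PHLac-low and a PHLac-high fraction, after a brief exposure to lactate medium and a washout that both fractions went through. The sort was done 4 times, and the 8 messenger RNA libraries form 4 pairs of a PHLac-low and a PHLac-high sample. All libraries come from 1 cell line, and the labels do not say whether repeats were separate cultures. P-values of the paired fit therefore measure only how much the difference varied between these 4 pairs. Those without pairing measure only the spread between these samples.

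Ribosomes are assembled in the nucleolus: RNA polymerase I (POLR1 subunits) transcribes the ribosomal RNA precursor, the small-subunit processome (many UTP proteins) folds and cuts it, and box C/D particles built on NOP56, NOP58 and fibrillarin methylate it. Ribosomal proteins of the large (RPL) and small (RPS) subunit join this RNA. In the cytoplasm, initiation factors (EIF) bring the initiator tRNA, the small subunit and the capped messenger RNA together. Demand for both systems rises in growing cells, and MYC and the mTOR kinase are known regulators of them.

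The table holds only genes with an adjusted p-value of at most 0.05 in the authors' own comparison of the same libraries. It covers 18 of 56 protein-coding RefSeq genes with EIF symbols, 16 of 28 with NOP, UTP or POLR1 symbols and 8 of 89 with RPL or RPS symbols. Genes listed under another symbol, such as the RNA polymerase I subunit TWISTNB, are not counted among these and are described apart below. The remaining genes were not analysed here. Counts of changed genes are therefore descriptions of a selected table and not tests. Values are normalised counts, that is, reads divided by 1 size factor per library. In GENCODE 29, exons of 26 of the 46 members overlap those of another gene, on the same strand for 11 and on the opposite strand for 19. Reads in the listed genes ranged from 8979276 to 23176205 per library. Of 15 markers looked for, 4 were listed: the duct keratin KRT19 (log2 change 0.23), the fibroblast collagen COL1A1 (-0.64), and the leukocyte genes PTPRC (-1.36) and CD68 (0.55). The labelled tissue could not be checked against the other markers. All 9 listed heat shock and immediate early genes of 11 looked for were higher in PHLac-high, with a median log2 change of 1.29, and the part of that response in the values below was not tested.

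Nearly all members were higher in PHLac-high. By limma with the repeat as a block, 43 of the 46 were higher and 3 were lower (NOP9, RPL36A and the pseudogene RPS16P5). All 46 passed an adjusted p of 0.05, where 99.9% of all listed genes passed (58.7% higher and 41.2% lower). Members were higher in 93.5% of cases, against 58.8% of all listed genes. When libraries were scaled instead to equal upper quartiles of the listed genes, the median log2 change of all listed genes moved from 0.25 to 0.02, and 37 members were higher and 9 lower (80.4% higher, against 54.1% of listed genes). RPL21, RPL24, RPS21, EIF1, EIF3M and EIF4E2 were the 6 that turned. Under that scaling 17 of the 46 passed the test, 14 of them higher, against 64.4% of listed genes passing and 23.2% passing and higher. Median-ratio size factors were computed over the listed genes and fitted in DESeq2 with the block. With them 31 members passed, 28 of them higher (81.4% and 40.2% of listed genes). Without the repeat block 10 passed, 9 of them higher, both in limma (31.0% and 20.3% of listed genes) and in edgeR (32.7% and 21.3%). These values are shares of each library, so fewer cells of a type and less RNA per cell cannot be told apart.

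The median log2 change was 0.36 for initiation factors, 0.34 for nucleolar factors and 0.24 for ribosomal proteins, where all listed genes had 0.25. Of the classes in that order, 13 of 18, 13 of 16 and 4 of 8 members lay above the median of the listed genes, where 50% of them do by construction. The ribosomal protein class takes in RPS19BP1, its largest change (0.35), which is no ribosomal protein. The 0.25 of all listed genes takes in genes of both directions. Over genes picked for being higher, which is a description and no comparison of the classes, the median was 0.36 for 18 initiation factors, 0.35 for 15 nucleolar factors and 0.25 for 7 ribosomal proteins, and 0.37 for all 2156 such listed genes, members included. The fractions did not overlap for 16 members (34.8%), all higher in PHLac-high, where 36.7% of all listed genes did not overlap (23.3% with PHLac-high above). The difference had 1 sign in 4 of 4 repeats for 45 members, where 96.1% of listed genes did so. RPL22L1 was the exception.

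**Figure D1:**
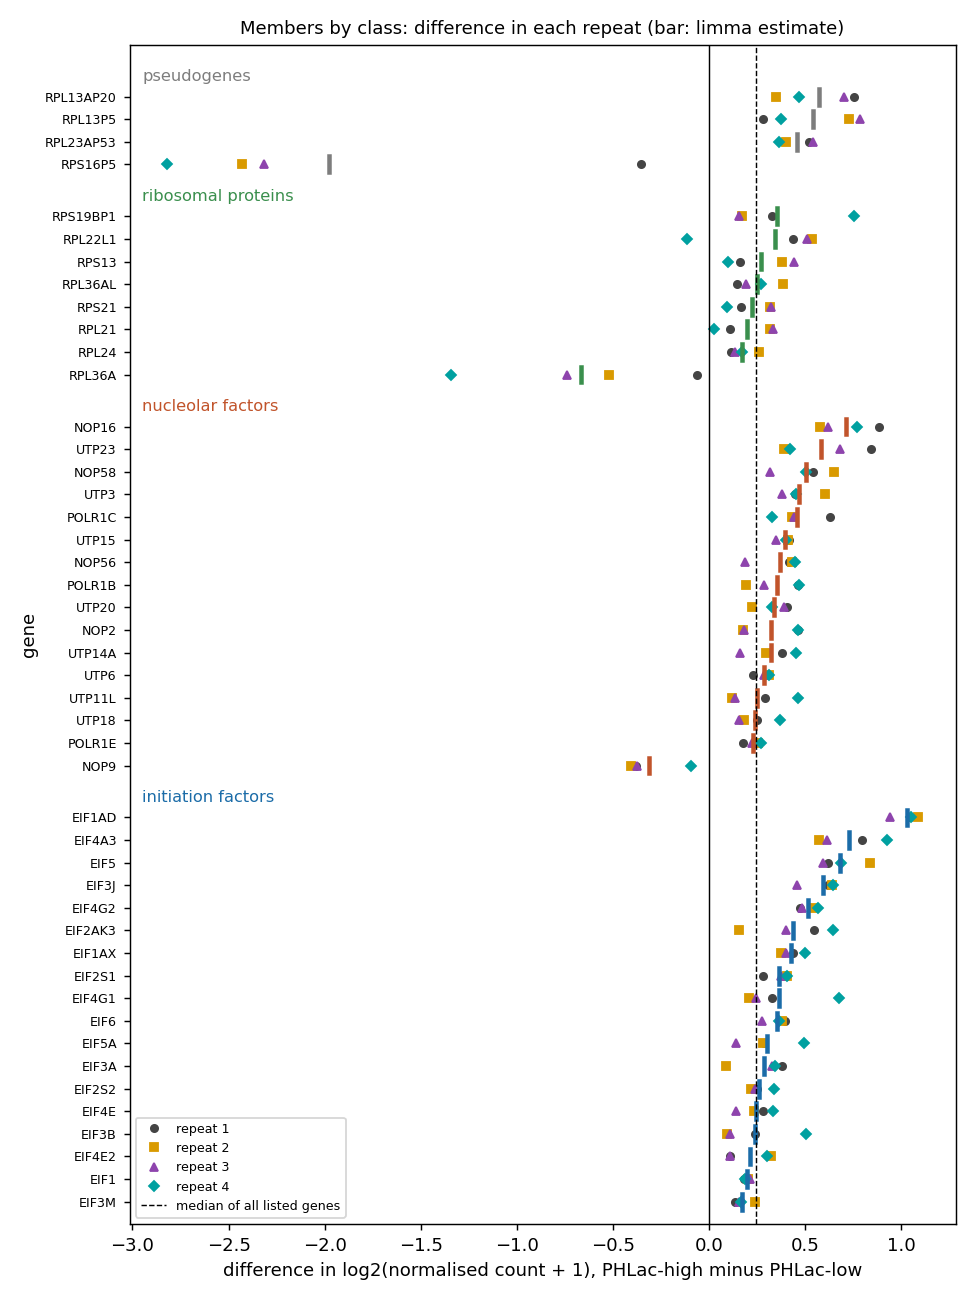
Difference in log2(normalised count + 1) between PHLac-high and PHLac-low in each of the 4 repeats (symbols) and the limma estimate (bar) for the 46 members, grouped by class; the dashed line is the median of all listed genes. Points lie right of 0 for 43 members, with RPL22L1 in repeat 4 the 1 point among them left of 0, and left of 0 for NOP9, RPL36A and RPS16P5.

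The classes differed most in repeat 4. In repeats 1 to 4 the median difference was 0.35, 0.30, 0.30 and 0.50 for initiation factors and 0.42, 0.30, 0.29 and 0.43 for nucleolar factors. Ribosomal proteins had 0.15, 0.32, 0.26 and 0.10. Across all listed genes the medians were 0.22, 0.18, 0.17 and 0.20. Ribosomal proteins were therefore above the listed genes in repeats 2 and 3 and below them in repeats 1 and 4, while the other classes were above them in every repeat.

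**Figure D2:**
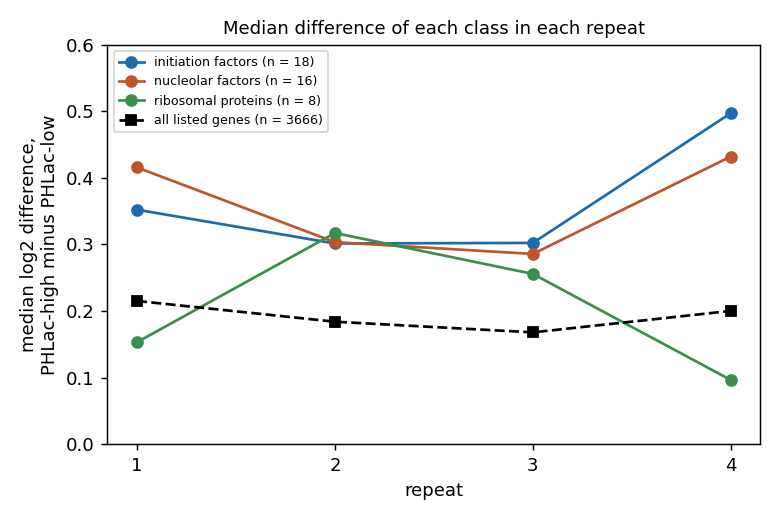
Median log2 difference of each class (y axis, PHLac-high minus PHLac-low) in each repeat (x axis), with all 3666 listed genes as the dashed line. Initiation and nucleolar factors lie above the dashed line in all 4 repeats, and ribosomal proteins only in repeats 2 and 3.

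Some promoters of the members hold known signals for this gene class, and the sequences are shown because the classes differ in them. RefSeq promoter windows (GRCh38.p14, 250 bases before to 50 after the annotated start) were found for 36 of the 46 members. Messenger RNAs of most ribosomal proteins open with a C followed by a run of pyrimidines, the terminal oligopyrimidine tract, through which mTOR and LARP1 control their translation. A start with C and then at least 4 bases C or T was present in 8 of 36 member promoters (22.2%), 4.47% of 2731 listed genes with a promoter and 4.07% of all 35116 promoters. Those 8 were 6 of the 7 ribosomal protein genes with a promoter, the eIF3 subunit EIF3M and the processome gene UTP14A. The 25 bases around each start follow, with the pyrimidine run in capitals from its first base, the annotated start.
RPL21 (chr13:27251548-27251572, plus strand): ccgcctctttCCTTTCggccggaac
RPS13 (chr11:17077653-17077677, minus strand): ctctcgctctCCTTTCgttgcctga
RPS21 (chr20:62387093-62387117, plus strand): ctagctgcttCCTTTCTCTCTCgcg
RPL24 (chr3:101686704-101686728, minus strand): atgattctctCTTTCTTTTCgccat
RPL22L1 (chr3:170870181-170870205, minus strand): ccgtagcttcCTCTCTgctctcgcg
RPL36A (chrX:101391001-101391025, plus strand): ctcgcggtttCTTTCTTTCCgcgcc
EIF3M (chr11:32583821-32583845, plus strand): gcccagttccCTTTTCCggtcggcg
UTP14A (chrX:129906154-129906178, plus strand): aaattgctttCCTTCggcttccgtt

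The 8 members with such a start had a median log2 change of 0.21, and the 28 without had 0.36. Among all listed genes the medians were 0.20 for 122 genes with such a start and 0.25 for 2609 without. As 6 of the 8 are ribosomal protein genes, this restates the difference between the classes. The 8 ranged from -0.67 (RPL36A) to 0.34 (RPL22L1).

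The E-box CACGTG, which reads the same on both strands and is the site that MYC with its partner MAX is known for, was present in 7 of 36 member promoters (19.4%), 9.78% of listed genes and 7.26% of all promoters. It lay in 3 of 16 initiation factor promoters (EIF4A3, EIF4E and EIF4G1), 4 of 13 nucleolar factor promoters (NOP2, UTP14A, UTP18 and UTP20) and 0 of 7 ribosomal protein promoters. Windows of 60 bases upstream of the start are shown for 5 of them, with the E-box in capitals.
EIF4A3 (chr17:80147217-80147276, minus strand): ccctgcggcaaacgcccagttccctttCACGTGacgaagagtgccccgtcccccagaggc
EIF4G1 (chr3:184314512-184314571, plus strand): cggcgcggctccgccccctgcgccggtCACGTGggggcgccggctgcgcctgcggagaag
EIF4E (chr4:98929173-98929232, minus strand): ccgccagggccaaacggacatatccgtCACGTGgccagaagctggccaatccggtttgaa
UTP18 (chr17:51260430-51260489, plus strand): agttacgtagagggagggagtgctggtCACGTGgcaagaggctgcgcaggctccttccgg
UTP20 (chr12:101280045-101280104, plus strand): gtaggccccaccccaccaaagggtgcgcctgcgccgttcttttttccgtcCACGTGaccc

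The median log2 change was 0.32 for the 7 members with the E-box and 0.34 for those without it. For all listed genes it was 0.29 for 267 with the E-box and 0.25 for 2464 without. Of the other motifs searched on both strands, CCGGAAGT, an ETS-type site, was in 4 of 36 member promoters and 8.02% of listed ones. GGGCGG, a site bound by SP1, was in 22 of 36 and 69.7%. A match is a description of these letters and not a measured binding site.

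Genes classed as initiation factors by symbol were all higher in PHLac-high, 18 of 18, with log2 changes from 0.17 to 1.03. The largest increase among them was that of EIF1AD, which encodes a protein with a domain like that of eIF1A (chr11:65996545-66002157). It had 508, 551, 590 and 707 normalised counts in PHLac-low (repeats 1 to 4) and 1048, 1172, 1133 and 1463 in PHLac-high. Every PHLac-high library was above every PHLac-low library, with means of 589 ± 85.4 and 1204 ± 180 (SD, n = 4). This is a log2 change of 1.03 ± 0.07 (SE), with limma adjusted p = 3.9e-05. Its exons overlap those of BANF1 on the opposite strand, and whether counting used strand is not given in the sources used here.

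EIF4A3 encodes the RNA helicase at the core of the exon junction complex, a relative of the initiation helicase eIF4A (chr17:80134369-80147128). PHLac-low libraries held 8548, 7889, 7661 and 8404 normalised counts, and PHLac-high libraries 14846, 11719, 11740 and 15954. There was no overlap, and the PHLac-high values of repeats 1 and 4 stood above those of repeats 2 and 3. The change was 0.73 ± 0.07 on the log2 scale (limma adjusted p = 0.000109).

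EIF5 encodes the protein that triggers GTP hydrolysis by eIF2 once the start codon is found (chr14:103334237-103345025). Its counts were 8735, 7354, 7315 and 8011 in PHLac-low and 13392, 13146, 11010 and 12896 in PHLac-high, again without overlap. The log2 change was 0.68 ± 0.06 (limma adjusted p = 7.8e-05). EIF3J, a loosely bound subunit of eIF3 (chr15:44537147-44562803), went from 2805, 2772, 3198 and 4226 to 4309, 4324, 4391 and 6604. Both fractions of repeat 4 were the highest of their group, and PHLac-low of repeat 4 nearly reached the lowest PHLac-high library. The log2 change of EIF3J was 0.59 ± 0.06 (limma adjusted p = 0.000121).

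EIF4G2 encodes a relative of the scaffold eIF4G that does not bind the cap-binding protein eIF4E (chr11:10797046-10808926). It had 19008, 16038, 17730 and 25418 normalised counts in PHLac-low and 26400, 23235, 24809 and 37615 in PHLac-high. The fractions overlapped through repeat 4 alone, whose PHLac-low value exceeded the PHLac-high values of repeats 2 and 3. Within each repeat the difference was between 0.47 and 0.57 on the log2 scale, and the limma estimate was 0.51 ± 0.05 (adjusted p = 0.000109 with the block, 0.0604 without it).

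EIF2AK3, the only regulator of initiation among the EIF symbols listed, encodes PERK, the endoplasmic reticulum kinase that phosphorylates eIF2 under stress (chr2:88556741-88628145). Counts were 636, 894, 1164 and 487 in PHLac-low and 928, 995, 1536 and 763 in PHLac-high. Repeat 4 was the lowest of both fractions, unlike for most other initiation factors. The log2 change was 0.44 ± 0.09 (limma adjusted p = 0.00306), and it missed the threshold without the block (0.195) and after upper-quartile scaling (0.06).

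The other initiation factors had smaller log2 changes. The eIF2 subunits EIF2S1 and EIF2S2, which carry the initiator tRNA, had log2 changes of 0.37 and 0.26. Of the 14 genes with EIF3 symbols, 4 were analysed: besides EIF3J they were EIF3A (0.28), EIF3B (0.24) and EIF3M (0.17). The difference of EIF3B was 0.51 in repeat 4 and 0.09 to 0.24 in the others, and without repeat 4 its change was 0.15. EIF1 and EIF1AX, which bind the small subunit during scanning for the start codon, had 0.20 and 0.43. EIF1 and EIF3M were steady between repeats, with differences of 0.18 to 0.21 for EIF1 and 0.13 to 0.24 for EIF3M.

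The cap-binding group comprised EIF4E, the cap-binding protein (log2 change 0.24), EIF4E2, a cap-binding relative that represses translation (0.21), and the scaffold EIF4G1 (0.36). EIF4G1, chosen after its values were seen, held 32307, 30048, 29422 and 40597 normalised counts in PHLac-low and 40543, 34662, 34814 and 64782 in PHLac-high. Its difference was 0.67 in repeat 4 and at most 0.33 in the others. EIF6, which keeps free large subunits from joining small ones, had 0.35. EIF5A, known chiefly as an elongation factor despite its symbol and also chosen after its values were seen, had 31397, 24496, 25355 and 46307 in PHLac-low and 38331, 29749, 27894 and 65207 in PHLac-high. PHLac-low of repeat 4 was thus above the PHLac-high libraries of all other repeats, and the log2 change of 0.30 ± 0.06 (limma adjusted p = 0.00299) had an adjusted p of 0.34 without the block.

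**Figure D3:**
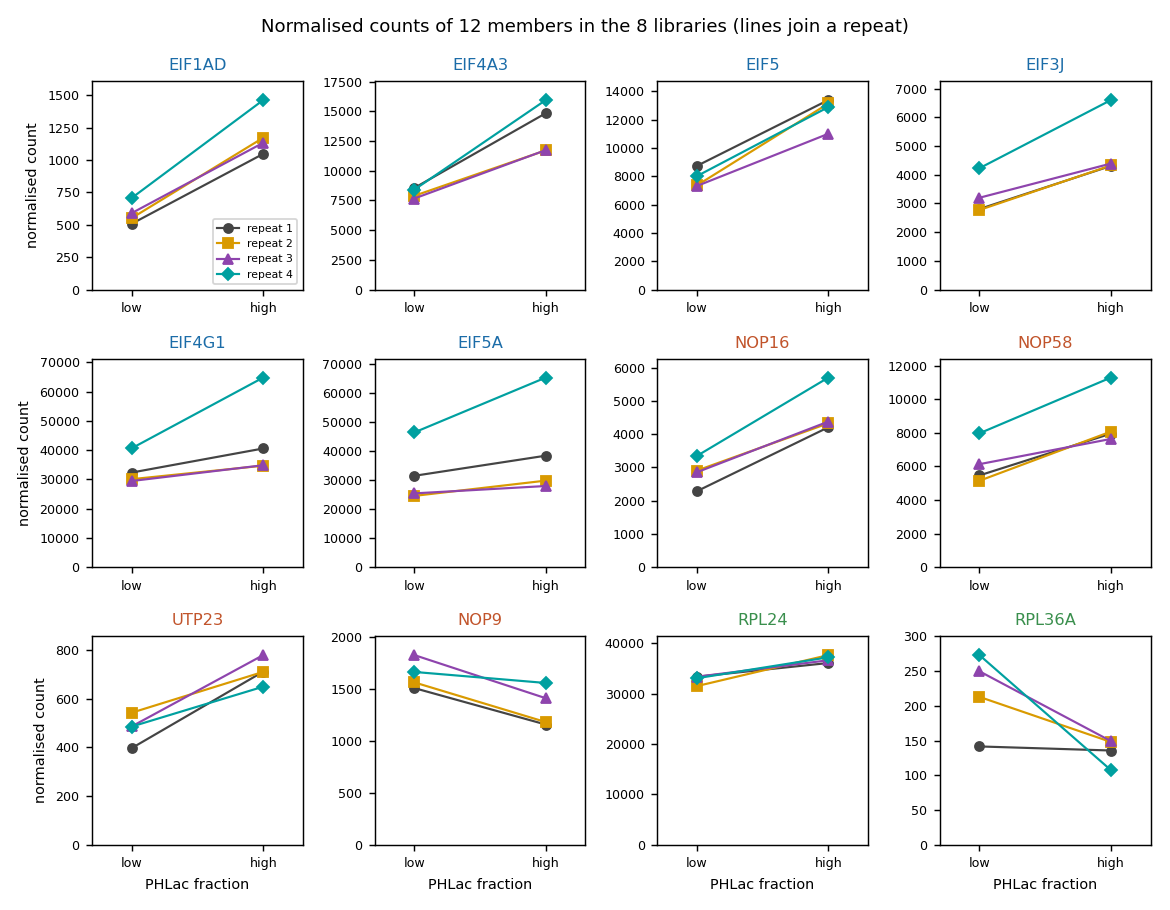
Normalised counts (y axes from 0) of 12 members in the PHLac-low and PHLac-high libraries, with a line joining the libraries of 1 repeat. Lines rise in all 4 repeats in the panels of initiation factors, NOP16, NOP58, UTP23 and RPL24, and fall in those of NOP9 and RPL36A; repeat 4 stands highest in both fractions for EIF1AD, EIF3J, EIF4G1, EIF5A, NOP16 and NOP58.

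Nucleolar factors were higher in 15 of 16 cases. NOP16, a nucleolar protein of large-subunit assembly (chr5:176383946-176388598), had 2283, 2904, 2853 and 3344 normalised counts in PHLac-low and 4209, 4329, 4380 and 5705 in PHLac-high. The fractions did not overlap, and the estimate was 0.71 ± 0.07 on the log2 scale (limma adjusted p = 0.000109). Its exons overlap those of HIGD2A and ARL10 on the opposite strand.

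The small-subunit processome gene UTP23 had 397, 543, 486 and 486 in PHLac-low and 712, 711, 780 and 650 in PHLac-high, with no overlap and the largest differences in repeats 1 and 3. Its log2 change was 0.58 ± 0.10 (limma adjusted p = 0.00124). UTP3, another processome gene (chr4:70688532-70690551), went from 1310, 1275, 1451 and 1662 to 1784, 1936, 1885 and 2275, also without overlap. The change of UTP3 was 0.47 ± 0.07 (limma adjusted p = 0.0005). The other UTP genes, UTP6, UTP11L, UTP14A, UTP15, UTP18 and UTP20, had log2 changes from 0.24 to 0.39, so that 8 of 8 were higher.

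NOP58, a core protein of the box C/D particles that methylate ribosomal RNA (chr2:202265763-202303661), had 5459, 5141, 6129 and 7966 in PHLac-low and 7950, 8072, 7634 and 11290 in PHLac-high. PHLac-low of repeat 4 lay within the PHLac-high range, and the fractions overlapped for that reason alone. The log2 change was 0.50 ± 0.06 (limma adjusted p = 0.00033), and it just missed the threshold without the block (0.0501). Its partner NOP56 had 0.37, and NOP2, a ribosomal RNA methyltransferase, had 0.32.

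NOP9, an RNA-binding protein of small-subunit maturation (chr14:24271203-24309124), was the 1 nucleolar factor that was lower. It had 1509, 1564, 1828 and 1665 normalised counts in PHLac-low and 1158, 1181, 1411 and 1558 in PHLac-high. In repeat 4 the difference was -0.10, and in the others it was between -0.41 and -0.37. The log2 change was -0.31 ± 0.08 (limma adjusted p = 0.0046, 0.0783 without the block). Exons of LTB4R2 overlap those of NOP9 on the same strand, so its reads may include those of a neighbour.

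RNA polymerase I subunits with POLR1 symbols were higher in 3 of 3 cases. TWISTNB, a subunit listed under another symbol, is given with the other lists below (0.53). POLR1C, a subunit shared with RNA polymerase III (chr6:43517089-43562407), had 1933, 2006, 1826 and 2365 in PHLac-low and 2990, 2703, 2476 and 2968 in PHLac-high, with no overlap. Its log2 change was 0.46 ± 0.07 (limma adjusted p = 0.000605). POLR1B, which forms the active centre with the largest subunit, had 0.35, and POLR1E had 0.23.

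Among ribosomal protein symbols, 7 of 8 were higher, most of them by little. RPS13 (chr11:17074388-17077667), a small-subunit protein, had 9742, 9057, 10337 and 10271 normalised counts in PHLac-low and 10887, 11790, 14039 and 11013 in PHLac-high. RPS21 (chr20:62387103-62388520), also of the small subunit, went from 9866, 8892, 10088 and 9937 to 11057, 11080, 12611 and 10593. Neither overlapped between fractions, and in both the smallest difference was in repeat 4. The log2 changes were 0.27 ± 0.07 for RPS13 and 0.22 ± 0.06 for RPS21 (limma adjusted p = 0.00572 and 0.00645), and after upper-quartile scaling they were 0.05 and -0.00053. Neither passed under that scaling, with median-ratio size factors (DESeq2 adjusted p = 0.0763 and 0.161) or without the block (limma adjusted p = 0.0794 and 0.0922). RPS13 did not pass after GC correction (limma adjusted p = 0.0666).

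The large-subunit proteins RPL21 and RPL24 had log2 changes of 0.20 and 0.17, both below 0 after upper-quartile scaling. RPL24, chosen after its values were seen, was steady: 33344, 31478, 33340 and 33045 in PHLac-low and 36070, 37648, 36615 and 37204 in PHLac-high. Its fractions did not overlap although the change was among the smallest of the 46. RPL36AL (chr14:49618530-49620626) had 4447, 3716, 4237 and 4982 in PHLac-low and 4921, 4843, 4831 and 6007 in PHLac-high, a change of 0.25 ± 0.06 (limma adjusted p = 0.0047). That call was lost after upper-quartile scaling (0.02, limma adjusted p = 0.80) and with median-ratio size factors (0.13, DESeq2 adjusted p = 0.10). It was also lost after GC correction (0.06, limma adjusted p = 0.38) and without the block (limma adjusted p = 0.11).

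RPL36A, from which RPL36AL differs little in sequence, went the other way (chrX:101391011-101396155). It had 142, 213, 250 and 273 normalised counts in PHLac-low and 136, 148, 149 and 107 in PHLac-high. The difference ran from -0.06 in repeat 1 to -1.34 in repeat 4, where PHLac-low was highest and PHLac-high lowest. The log2 change was -0.67 ± 0.20 (limma adjusted p = 0.0101, 0.056 without the block), and it was -0.44 without repeat 4. Its exons are shared with the readthrough gene RPL36A-HNRNPH2. Ribosomal proteins also have many processed pseudogenes, so reads of these genes could be split among copies and their values are uncertain.

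RPL22L1, a paralogue of RPL22 (chr3:170864875-170870195), had 1080, 1444, 1447 and 1509 in PHLac-low and 1462, 2096, 2060 and 1395 in PHLac-high. It was higher in repeats 1 to 3 and lower by -0.11 in repeat 4. The log2 change of 0.34 ± 0.11 (limma adjusted p = 0.0139) missed the threshold without repeat 2 (adjusted p = 0.0795) and without repeat 3 (0.0619). It also missed it without the block (0.12), after upper-quartile scaling (0.404), with median-ratio size factors (0.0527 in DESeq2) and after GC correction (0.201). RPS19BP1 is no ribosomal protein but a nucleolar binding partner of RPS19 (chr22:39529093-39532748). Its counts were 975, 1019, 920 and 1213 in PHLac-low and 1223, 1149, 1026 and 2046 in PHLac-high. The difference in repeat 4 was 0.75, against at most 0.33 in the others, and the estimate was 0.35 ± 0.11 (limma adjusted p = 0.0105). Without repeat 4 it was 0.22, and after GC correction 0.68. The call was lost without the block (adjusted p = 0.159), after upper-quartile scaling (0.13, adjusted p = 0.278) and with median-ratio size factors (DESeq2 adjusted p = 0.0552).

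The pseudogenes were few and low. RPL13AP20 (157, 222, 184 and 108 in PHLac-low, 265, 283, 301 and 150 in PHLac-high) and RPL13P5 (160, 126, 130 and 115, then 195, 209, 224 and 150) were higher in every repeat, with log2 changes of 0.57 and 0.54 (limma adjusted p = 0.117 and 0.0588 without the block). RPL23AP53 had 246, 299, 330 and 282 in PHLac-low and 353, 395, 480 and 364 in PHLac-high, a change of 0.46 (0.0556 without the block). After upper-quartile scaling RPL13P5 (adjusted p = 0.0991) and RPL23AP53 (0.0796) did not pass. RPS16P5 had 8 to 33 reads per PHLac-low library and 1 to 9 per PHLac-high library, which is too few for a fold. Reads of these genes cannot be told apart from misplaced reads of their parent genes.

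Of 133 factors of ribosomal RNA processing and subunit assembly that carry other symbols, 64 were analysed, and 64 of the 64 were higher and passed the threshold (58.7% of all listed genes were called and higher). Their median log2 change was 0.33. After upper-quartile scaling 61 of the 64 were still higher, where 54.1% of listed genes were. Of all 64, 18 passed and were higher, where 23.2% of all listed genes were. Among genes higher under that scaling, 18 of 61 factors passed, and 850 of 1984 listed genes did. The largest changes were those of ZNF622 (0.77), a factor of late large-subunit maturation, and WDR43 (0.61), a processome subunit. The smallest were in the helicase DDX47 (0.18) and the processome gene WDR46 (0.22). Of 13 RNA polymerase I factors, 5 were analysed and 4 were higher. The Pol I subunit TWISTNB had 0.53, RRN3, which recruits the polymerase to the promoter, had 0.45, and TAF1C, of the promoter selectivity factor, had -0.25.

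Translation genes outside initiation were all higher among the tRNA synthetases and mixed in the other smaller lists. Of 22 cytosolic tRNA synthetases and partners, 8 were analysed and all 8 were higher, from 0.18 (IARS) and 0.21 (RARS) to 0.27 (CARS) and 0.38 (TARS). After upper-quartile scaling 5 of the 8 were higher. Of 20 elongation, termination and recycling factors, 7 were analysed, 5 higher and 2 lower. The ribosome rescue factor PELO had 0.60 and the release factor ETF1 0.46, while EEF2K, the kinase that inhibits elongation, had -0.30 and the GTPase GTPBP2 -0.24.

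Of 29 genes of translation control, 10 were analysed, 8 higher and 2 lower. PPP1R15A (GADD34), which directs the phosphatase that reverses eIF2 phosphorylation, had 0.72, and MYC had 0.59 ± 0.06 (limma adjusted p = 0.000113), with means of 19013 and 28485 normalised counts. The kinase RPS6KA2 (-0.57) and TSC2 (-0.22), an inhibitor upstream of mTOR, were lower. MTOR was not analysed here.

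Repeat 4 stood apart for these genes in both fractions. It held the highest value of both PHLac-low and PHLac-high for 24 of the 46 members (52.2%), against 28.5% of all listed genes. By class this was 11 of 18 initiation factors, 11 of 16 nucleolar factors and 2 of 8 ribosomal proteins, and it was 49 of 64 of the other processing and assembly factors. Relative to the mean of repeats 1 to 3, initiation factors in repeat 4 had a median of 0.29 more in PHLac-low and 0.45 more in PHLac-high on the log2 scale. Nucleolar factors had 0.30 and 0.34. Ribosomal proteins had 0.14 and -0.14, and all listed genes -0.02 and -0.05. Initiation and nucleolar factors thus stood higher in repeat 4 than in the other repeats in both fractions, and ribosomal proteins only in PHLac-low. What differed in repeat 4 was not tested. Without repeat 4 the medians of the classes were 0.31, 0.33 and 0.25, and that of all listed genes was 0.22. Ribosomal proteins were thus above the listed genes without repeat 4, and slightly below them with it (0.24 against 0.25).

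**Figure D4:**
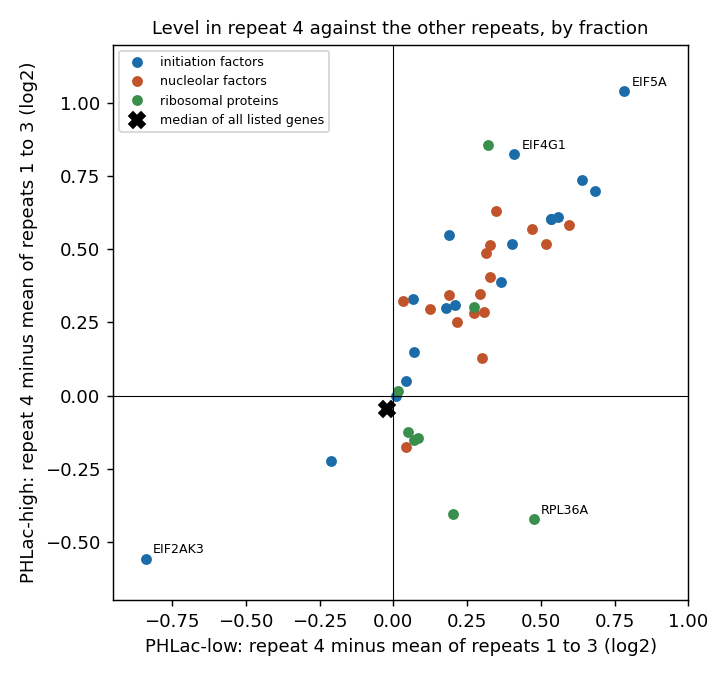
Log2 level in repeat 4 minus the mean of repeats 1 to 3, in PHLac-low (x axis) and PHLac-high (y axis), for the members other than pseudogenes, with the median of all listed genes as a cross. Most initiation and nucleolar factors lie in the upper right, EIF5A farthest, while EIF2AK3 lies in the lower left and RPL36A in the lower right.

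GC content moved with the direction of change in the table. In 5 equal groups of listed genes ordered by the GC content of their transcripts, 79.7%, 75.7%, 65.3%, 47.9% and 27.5% were higher in PHLac-high. The members' median GC content was 46.6%, against 50.4% for all listed genes, and these groups held 9, 16, 9, 11 and 1 of them. In the fourth group the 11 members had a median log2 change of 0.35, where all listed genes of that group had -0.22. The medians of the members and of the group had opposite signs there. As 47.9% of that group was higher, the sign of its median rests on a near-even split. After a correction for GC content with the repeat block, 42 members were higher and 4 lower (EIF3M turned), and 31 of the 46 passed, where 67.7% of listed genes passed. Called and higher were 28 of all 46 members, where 40.6% of the 3617 listed genes with a GC value were. The part of GC content in the members' values was not tested beyond this correction.

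**Figure D5:**
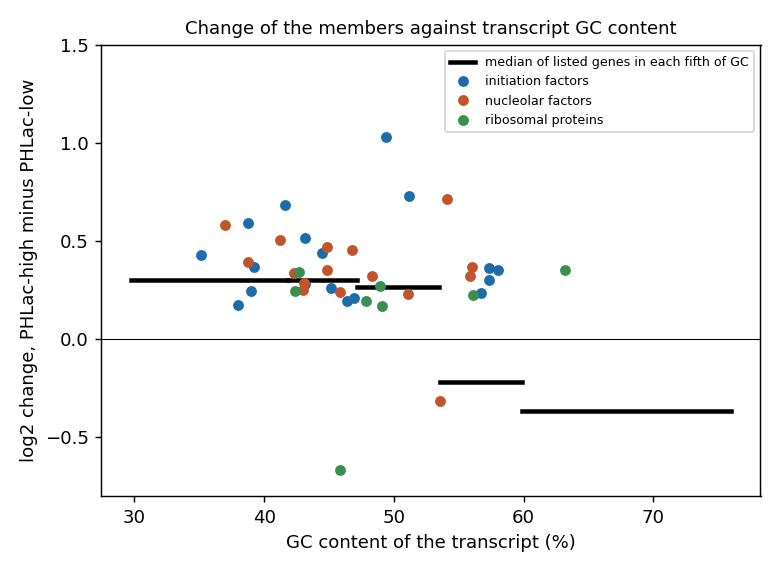
Log2 change (y axis) against the GC content of the transcript (x axis, %) for the members other than pseudogenes, with bars at the median change of listed genes in each of the 5 GC groups. The bars fall from 0.30 to -0.36, while the members above 53.5% GC content lie between 0.22 and 0.71, apart from NOP9.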

How the data were processed

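The authors deposited 1 table of 3666 genes with a normalised signal per library, their log2 fold change and their adjusted p-value (at most 0.05). Per the submitters' processing notes STAR, Subread, SAMtools and DESeq2 were used with build hg38, with no versions, roles or annotation. Libraries were made from selected messenger RNA with dUTP in the second strand, per the labels' protocols. Within 0.01 read, 100% of the deposited signal values in all 8 libraries were whole multiples of 1 step, so whole read counts and size factors (0.755 to 2.09) were taken as recovered. In 4 libraries this rests on fewer low genes (42, 78, 97 and 98 genes with 1 to 20 reads). The main fit was limma 3.58.1 (R 4.3.3), with a mean-variance trend, on log2(normalised count + 1) with the repeat as a block. Benjamini-Hochberg adjustment was over all 3666 genes at 0.05. The fit was also run on simulated counts in which most genes did not change. As the deposited genes were selected for a difference, that run does not bear on the calls given here. The series description states the pairing: libraries of a repeat had correlated deviations (0.53, 0.66, 0.73 and 0.76), against at most 0.27 between repeats. Alternatives were edgeR 4.0.16 and DESeq2 1.42.0 on the recovered reads, other scalings, filters and pseudocounts, and GC correction (GC content was found for 3617 genes). Full values are given for up to 5 members per class and direction with the largest change, with the kinase EIF2AK3 as a class of its own (regulators of initiation). The other lists give the 2 largest increases and the 2 largest decreases, or the 2 smallest increases where no gene was lower. Gene positions and promoters are from RefSeq GRCh38.p14. The members and lists were chosen with earlier results of these data known.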

Additional observations from a re-analysis of the deposited data

Results flagged for a closer look

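A value far from the other 3 was looked for in 95 groups of 4 values. It was found in 10, each a gene's 4 libraries of 1 fraction, where chance gives about 4.75. The groups share the same 8 libraries, so that figure is a rough guide. In 6 of the 10 the far library was PHLac-high of repeat 4, standing high. The gap to the nearest library, as a share of the group's range, was 0.964 for EIF3J (6604 normalised counts against 4309 to 4391), 0.923 for RPL36AL (6007 against 4831 to 4921), 0.890 for UTP11L (2349 against 1465 to 1562), 0.886 for NOP16 (5705 against 4209 to 4380), 0.880 for NOP58 (11290 against 7634 to 8072) and 0.840 for NOP2 (8954 against 5961 to 6439). These 6 genes share that library, so they are not independent of each other.

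The other 4 were single cases. UTP14A was low in PHLac-low of repeat 1 (3005 against 3678 to 3792, share 0.854), as was RPL22L1 (1080 against 1444 to 1509, share 0.849). RPL24 was low in PHLac-low of repeat 2 (31478 against 33045 to 33344, share 0.840). RPS16P5 stood high in PHLac-high of repeat 1 (10.5 against 1.01 to 2.39, share 0.856), on 9 reads.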

How the results depend on the processing

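Without the replicate block 10 members passed in limma (31.0% of listed genes) and 10 in edgeR (32.7%). After upper-quartile scaling 17 passed (64.4%), against 46 in the main fit (99.9%). Of the 64 other processing and assembly factors, 11, 11 and 18 were called and higher under these settings. Of listed genes, 20.3%, 21.3% and 23.2% were. In the main fit it was all 64, where 58.7% of listed genes were called and higher. Under upper-quartile scaling the medians on the log2 scale were 0.134 for initiation factors, 0.120 for nucleolar factors, 0.0109 for ribosomal proteins and 0.0209 for all listed genes, and RPS21 turned (-0.00053). Median-ratio size factors in DESeq2 gave 0.24, 0.23, 0.12 and 0.13. GC correction with the block gave 0.20 for nucleolar factors, 0.11 for ribosomal proteins and 0.10 for all listed genes. Upper-quartile and median-ratio factors scale whole libraries, while GC correction moved genes by different amounts. Leaving out 1 repeat gave 42 to 46 members past the threshold, where 3468 to 3627 of the 3666 listed genes passed. It gave 43 members higher (58.8% of listed genes) and 62 to 64 assembly factors called and higher. The medians were 0.31 to 0.37 for initiation factors, 0.31 to 0.37 for nucleolar factors, 0.20 to 0.26 for ribosomal proteins and 0.22 to 0.25 for all listed genes. A pseudocount of 0.1 and edgeR or DESeq2 with the block kept all 46 calls, where 3661, 3666 and 3666 of the 3666 listed genes passed. Requiring a mean of 100 kept 45 of 45, and 3305 listed genes passed. The table's selection limits every count, and depth limits RPS16P5.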
